A study of Homo sapiens with 8 samples.

Results

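The D-type cyclins and the genes that act with them at the G1 phase of the cell cycle were followed in Reh cells on Affymetrix U133 Plus 2.0 arrays. The listed genes were the cyclins CCND1, CCND2 and CCND3, the kinases CDK4 and CDK6, the inhibitors CDKN1B, CDKN2C and CDKN2D, and RB1. A probe set, the group of probes that together read a transcript, was a member when the platform annotation gave it exactly 1 symbol and that symbol was on the list. This gave 21 of 54613 probe sets, for 8 of the 9 genes: 2 for CCND1, 4 for CCND2, 2 for CCND3, 1 for CDK4, 7 for CDK6, 1 for CDKN1B, 2 for CDKN2D and 2 for RB1. No member probe set was found for CDKN2C, which was not analysed here. All values are log2 expression values, and no filter on level was applied, so all 21 probe sets were tested.

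D-type cyclins are the regulatory subunits of CDK4 and CDK6, and their amounts follow growth and survival signals from outside the cell. The active complexes phosphorylate the retinoblastoma protein RB1, which then releases E2F transcription factors, and the cell moves from G1 into S phase. CDKN2C and CDKN2D bind and block CDK4 and CDK6, and CDKN1B (p27) blocks cyclin E with CDK2. Lymphoid cells mostly use cyclins D2 and D3, and cyclin D1 is rarely made by normal B cells.

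Reh is an established human cell line that grew out of an acute lymphoblastic leukaemia of precursor B cells. The cells had received control constructs (mock), IRF5-4D, IKKβ(EE), or IRF5-4D together with IKKβ(EE), here called the combination. IRF5-4D is an active form of the transcription factor IRF5, and IKKβ(EE) is an active form of a kinase whose activity frees NF-κB from its inhibitors. Each group had 2 arrays, numbered 1 and 3 and described as biological duplicates. All 4 groups share the Reh line and the transfection, while the construct promoter, the harvest time and how many cells took up DNA were not given in the sources used here. More cells carrying an RNA and more RNA per cell cannot be told apart in such bulk samples.

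Array medians lay between 5.09 and 5.13 and lower quartiles between 3.67 and 3.73, and duplicates had a Pearson correlation of 0.994 to 0.996 over all probe sets. A level near the lower quartile is not shown to lie above background. Of 11 measured precursor B cell markers, 10 had a probe set whose mean over the 8 arrays was above the array median; VPREB1 did not. The summed level of the 27 probe sets of these markers ran from 276.8 to 277.9 in mock, 279.4 to 280.8 with IRF5-4D, 279.2 to 280.4 with IKKβ(EE) and 279.6 to 282.4 in the combination. The responding IKBKB probe set, 211027_s_at, read 4.80 and 4.06 in mock, 4.68 and 4.60 with IRF5-4D, 12.57 and 10.98 with IKKβ(EE), and 11.11 and 9.33 in the combination, on the arrays numbered 1 and 3. It was thus high on the 4 arrays labelled with IKKβ(EE) and low on the other 4. The other IKBKB probe sets, 209341_s_at and 209342_s_at, were not called against mock. They differed from it by 0.14 and 0.03 with IKKβ(EE) and by 0.16 and 0.04 in the combination. Of the 3 IRF5 probe sets, 205469_s_at was 0.20 (SE 0.13, limma adjusted p = 0.943) above mock with IRF5-4D and 0.92 (SE 0.13, adjusted p = 0.00648) in the combination. IRF5 205468_s_at was 0.57 (SE 0.17, adjusted p = 0.688) and 0.49 (SE 0.17, adjusted p = 0.208) above mock in the same groups, without overlap. The third, 239412_at, was 0.05 (SE 0.14, adjusted p = 0.991) and 0.28 (SE 0.14, adjusted p = 0.417) above mock there. Whether these probes match the transfected sequences was not given in the sources used here.

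CCND2 and CCND1 rose in the combination, and no other member passed the test in any comparison. CCND2 was 25.7-fold above mock on its most responsive probe set, and CCND1 was 6.55-fold above mock on 1 of its 2 probe sets and 3.18-fold on the other. The mock levels behind the first 2 folds lie near the lower quartile and are not shown above background, so these are ratios of the deposited values and not measured ratios of RNA. With a single construct, 1 CCND2 probe set was called with IKKβ(EE) in the main fit, at 4.12-fold. The same probe set read 3.6-fold above mock with IRF5-4D and was not called (limma adjusted p = 0.062). Both folds rest on the mock level behind the 25.7-fold, so the same limit holds for them. With the array number fitted as a block, CCND1 208712_at was also called with IKKβ(EE), as described below. The remaining 15 probe sets, those of CCND3, CDK4, CDK6, CDKN1B, CDKN2D and RB1, differed by at most 0.36 on the log2 scale between any 2 groups, and their lowest limma adjusted p was 0.284.

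**Figure D1:**
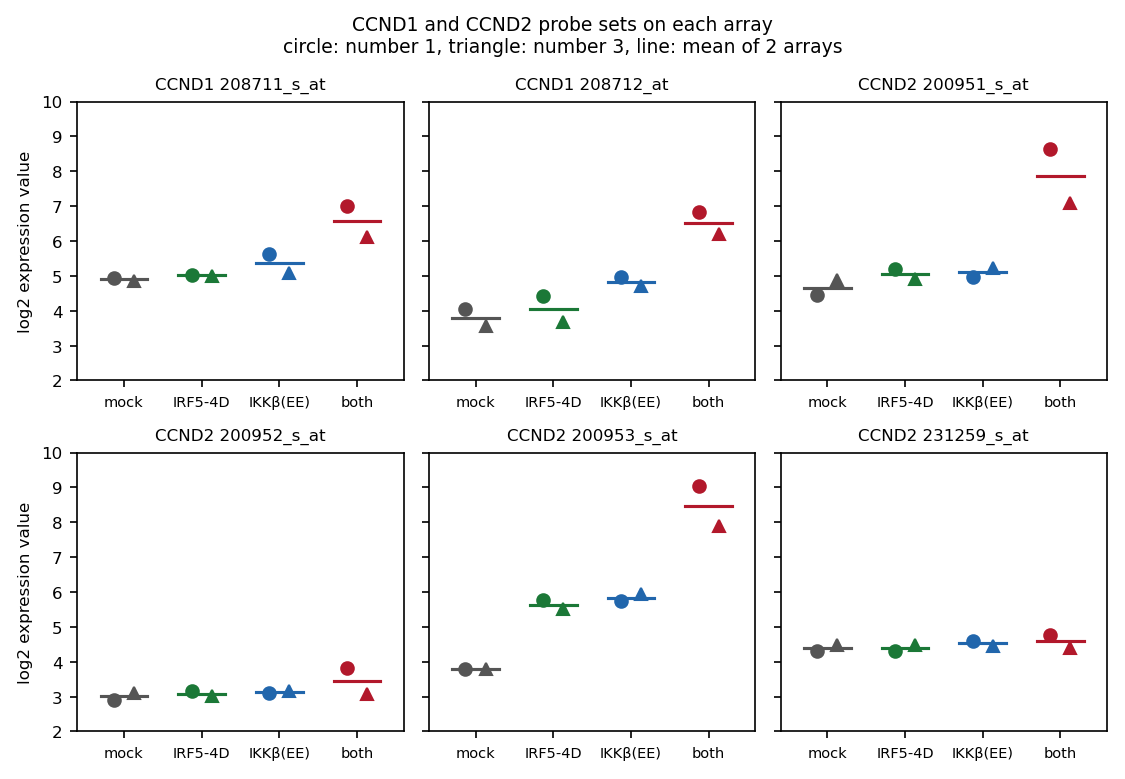
Log2 expression values of the 2 CCND1 and 4 CCND2 probe sets on each array, by transfection group (both: the combination). Circles are arrays numbered 1, triangles arrays numbered 3, and lines the mean of 2 arrays. The combination arrays of CCND2 200953_s_at lie at 9.05 and 7.90 against 3.80 and 3.78 in mock, while CCND2 231259_s_at stays between 4.31 and 4.77 on all 8 arrays.

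The 4 CCND2 probe sets gave different readings and are described apart. On 200953_s_at the mock arrays read 3.80 and 3.78, those with IRF5-4D 5.76 and 5.52, those with IKKβ(EE) 5.73 and 5.93, and those of the combination 9.05 and 7.90. Mock was lowest, the single constructs lay together in the middle, and the combination was highest; the ranges of the single constructs overlapped each other and no other ranges did. The mock values lie just above the lower quartile of their arrays, which leaves the fold over mock imprecise.

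With IRF5-4D this probe set was 1.85 (SE 0.30, 95% interval 1.18 to 2.51) above mock, or 3.6-fold, on a mean of 5.64 ± 0.17 (SD, n = 2) against 3.79 ± 0.01. The limma adjusted p of 0.062 over 54613 probe sets did not pass the threshold of 0.05. It was 0.0482 when each gene was represented by a single probe set and 19775 genes were tested, and 0.00105 when either combination array was left out. Thus 0 of 21 member probe sets were called with IRF5-4D, against 0.194% of all probe sets, and 1 of the 21 had an unadjusted p under 0.05, against 5.39% of all probe sets.

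With IKKβ(EE) the same probe set rose by 2.04 (SE 0.30, 95% interval 1.38 to 2.71), to 5.83 ± 0.14 (SD, n = 2), with a limma adjusted p of 0.0294. It was the 1 member called of 21 in this comparison (4.76%), against 0.302% of all probe sets. The call was lost without either mock array, either IRF5-4D array or either IKKβ(EE) array, with adjusted p from 0.0888 to 0.225, while the difference stayed between 1.94 and 2.14. IKKβ(EE) and IRF5-4D differed by 0.20 (SE 0.30, 95% interval -0.47 to 0.86) on this probe set, which does not show that their effects are equal. In that direct comparison 0 of 21 members were called, against 0.483% of all probe sets, and 1 had an unadjusted p under 0.05 in limma, against 6.66%.

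In the combination CCND2 on 200953_s_at rose by 4.69 (SE 0.30, 95% interval 4.02 to 5.35) above mock, to 8.47 ± 0.81 (SD, n = 2), with a limma adjusted p of 6.61e-05. It was also 2.84 (SE 0.30, adjusted p = 0.00359) above IRF5-4D alone and 2.64 (SE 0.30, adjusted p = 0.00292) above IKKβ(EE) alone. The rise over mock was 5.25 on the arrays numbered 1 and 4.12 on those numbered 3. Its call against mock and against IKKβ(EE) alone was kept when any 1 of the 8 arrays was left out, with a difference from mock of 4.11 to 5.26. Against IRF5-4D alone the call was lost without IRF5-4D array 1 (adjusted p = 0.0538) or array 3 (adjusted p = 0.0662).

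CCND2 probe set 200951_s_at read 4.45 and 4.87 in mock, 5.19 and 4.92 with IRF5-4D, 4.96 and 5.24 with IKKβ(EE), and 8.63 and 7.10 in the combination. Only the combination stood far apart, while the single constructs lay just above the mock arrays and overlapped each other. The difference from mock was 0.40 (SE 0.39, limma adjusted p = 0.965) with IRF5-4D and 0.44 (SE 0.39, adjusted p = 0.915) with IKKβ(EE). Their 95% intervals reached 1.28 and 1.33, below the differences of 1.85 and 2.04 on 200953_s_at. Those differences had intervals of 1.18 to 2.51 and 1.38 to 2.71. The intervals of the 2 probe sets thus overlapped with IRF5-4D but not with IKKβ(EE). The difference between the probe sets was not tested. In the combination 200951_s_at rose by 3.21 (SE 0.39, adjusted p = 0.00335), or 9.24-fold, and the call was kept when any 1 array was left out, at 2.44 without combination array 1 and 3.97 without combination array 3. It lay 2.81 (SE 0.39, adjusted p = 0.0138) above IRF5-4D alone and 2.77 (SE 0.39, adjusted p = 0.0118) above IKKβ(EE) alone. The first call was lost without either IRF5-4D array (adjusted p 0.117 and 0.149), and the second without either IKKβ(EE) array (adjusted p 0.106 and 0.0813).

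The other CCND2 probe sets did not pass. On 200952_s_at the mock arrays read 2.91 and 3.10, IRF5-4D 3.16 and 3.01, IKKβ(EE) 3.10 and 3.15, and the combination 3.81 and 3.08. It exceeded the lower quartile of its array on 1 of 8 arrays, that of the combination numbered 1, so its level is not shown to lie above background. The difference of the combination from mock was 0.44 (SE 0.21, limma adjusted p = 0.386). It was 0.075 (adjusted p = 0.927) without combination array 1 and 0.81 (adjusted p = 0.0463) without combination array 3. On 231259_s_at mock read 4.32 and 4.47, IRF5-4D 4.31 and 4.47, IKKβ(EE) 4.60 and 4.45, and the combination 4.77 and 4.41, with overlapping ranges and no array above its median. The combination differed from mock there by 0.19 (SE 0.15, 95% interval -0.14 to 0.53). The part of the CCND2 transcript that each probe set reads was not given in the sources used here. With the mean of all 4 probe sets as the value of the gene, CCND2 was 0.58 above mock with IRF5-4D (adjusted p = 0.909), 0.69 with IKKβ(EE) (adjusted p = 0.593) and 2.13 in the combination (adjusted p = 0.00447).

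CCND1, the cyclin seldom made by B cells, moved in the combination on both of its probe sets. On 208712_at the mock arrays read 4.04 and 3.56, IRF5-4D 4.41 and 3.67, IKKβ(EE) 4.95 and 4.70, and the combination 6.84 and 6.19. IRF5-4D overlapped mock, IKKβ(EE) lay above both, and the combination lay above all other arrays. This probe set was above the lower quartile on 6 of 8 arrays, all but mock array 3 and IRF5-4D array 3. The combination was 2.71 (SE 0.28, 95% interval 2.08 to 3.35) above mock with a limma adjusted p of 0.00121, and the call was kept when any 1 array was left out, at 2.38 to 3.04. It was 2.48 (SE 0.28, adjusted p = 0.00502) above IRF5-4D alone, a call lost without IRF5-4D array 3 (adjusted p = 0.0658). It was 1.69 (SE 0.28, adjusted p = 0.0256) above IKKβ(EE) alone, a call lost without either IKKβ(EE) array or combination array 1 (adjusted p 0.115 to 0.219).

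In the main fit the single constructs left CCND1 under the threshold. With the array number fitted as a block, 208712_at was called with IKKβ(EE). With IKKβ(EE) 208712_at was 1.02 (SE 0.28, 95% interval 0.39 to 1.66) above mock, with an unadjusted p of 0.0053 and a limma adjusted p of 0.406. With IRF5-4D it was 0.23 (SE 0.28, 95% interval -0.40 to 0.87) above mock. CCND1 probe set 208711_s_at read 4.94 and 4.86 in mock, 5.03 and 4.99 with IRF5-4D, 5.63 and 5.09 with IKKβ(EE), and 7.01 and 6.13 in the combination. The order of the groups on it was the same as on 208712_at, and no 2 groups overlapped. The combination was 1.67 (SE 0.26, limma adjusted p = 0.0123) above mock, a call lost without mock array 1 (adjusted p = 0.0668), without mock array 3 (adjusted p = 0.0636) or when only these 2 groups were fitted (adjusted p = 0.0611). It was 1.56 (SE 0.26, adjusted p = 0.0336) above IRF5-4D alone, a call lost without either mock array, either IRF5-4D array or combination array 1 (adjusted p 0.0511 to 0.215). Against IKKβ(EE) alone the difference of 1.21 (SE 0.26, adjusted p = 0.0772) did not pass. It was 0.77 (adjusted p = 0.218) without combination array 1 and 1.66 (adjusted p = 0.00809) without combination array 3.

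**Figure D2:**
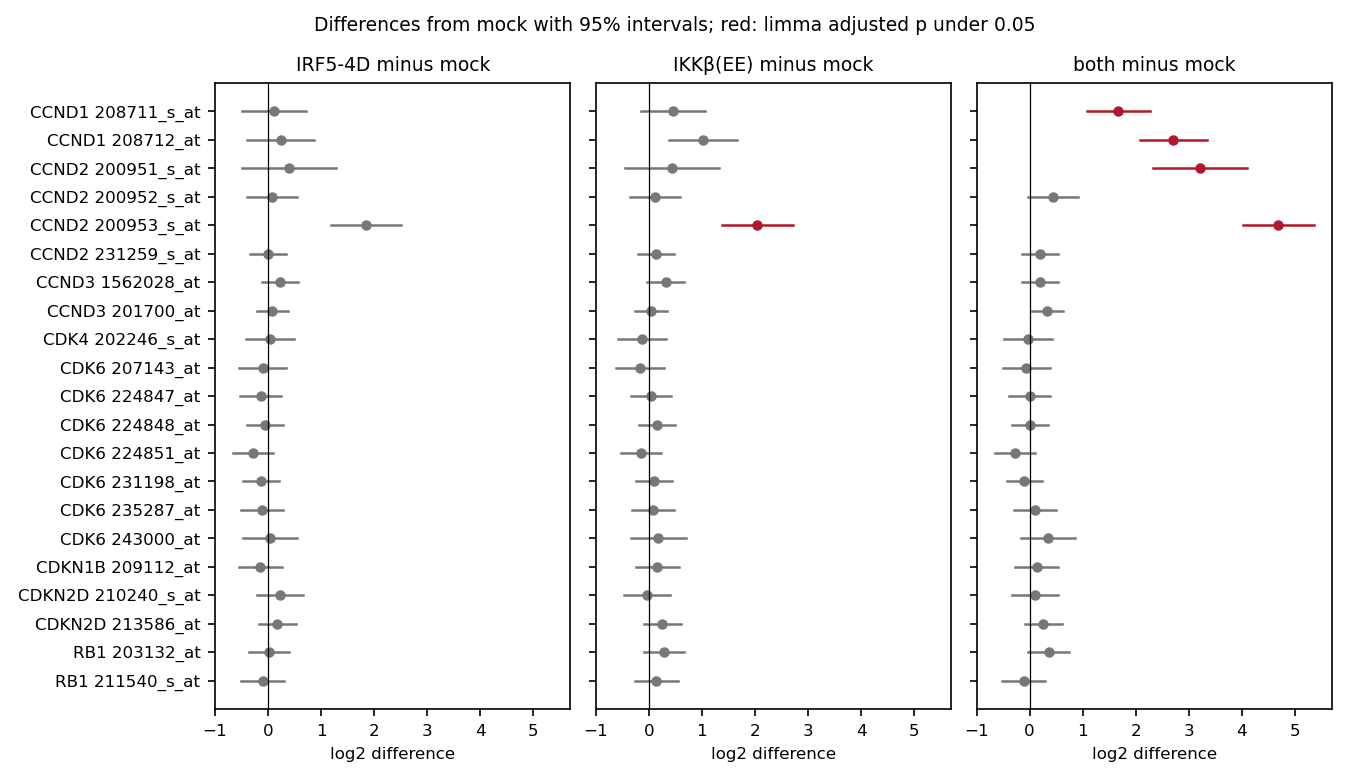
Differences from mock on the log2 scale for all 21 member probe sets with IRF5-4D, IKKβ(EE) and the combination (both). Points are limma estimates, bars their 95% intervals, and red marks an adjusted p under 0.05. In the combination the 2 CCND1 and 2 of the 4 CCND2 probe sets lie between 1.67 and 4.69, and the other 17 lie between -0.28 and 0.44.

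In all, 4 of 21 members (19%) were called higher and 0 lower in the combination against mock, where 2.09% of all probe sets were called, 1.66% higher and 0.425% lower. The 4 were the probe sets of CCND1 and CCND2 described above. The median difference over the 21 members was 0.19, against -0.035 over all probe sets. Of the 21, 9 were higher and 1 lower in the combination without overlap with mock, as were 17.2% and 25.7% of all probe sets, or 42.9% in either direction. Against IRF5-4D alone the combination had 4 members called of 21 (19%), with 0.842% of all probe sets called, and against IKKβ(EE) alone it had 3 (14.3%), with 1.11% of all probe sets called. The comparisons with mock share the same mock arrays.

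Markers of other cell types were read beside these rises. Of 7 T and NK cell markers 1 was called higher in the combination and 0 lower. In probe sets this was 1 called higher of 8, against 1.66% of all probe sets. The median over the 8 was -0.10, against -0.035 over all probe sets. The called marker was NKG7, a granule protein of cytotoxic cells. It read 4.49 and 4.79 in mock, 4.83 and 4.47 with IRF5-4D, 4.65 and 4.80 with IKKβ(EE), and 5.77 and 6.19 in the combination. This was a rise by 1.34 (SE 0.18, limma adjusted p = 0.00609). Only the combination stood apart. CD2, CD3D, CD3E, CD8A, GNLY and NKG7 had no probe set whose mean over all 8 arrays was above the array median, although NKG7 exceeded it in the combination. The summed level of the 8 T and NK probe sets ran from 35.9 to 36.4 in mock, 35.9 to 36.6 with IRF5-4D, 35.5 to 35.6 with IKKβ(EE) and 36.5 to 37.2 in the combination. Of 6 myeloid markers 0 were called against mock. The shares called of all probe sets were 0.194% with IRF5-4D, 0.302% with IKKβ(EE) and 2.09% in the combination. CD14, ELANE, FCN1 and LYZ had no probe set with such a mean above the array median. All 4 groups were of the Reh line, so these markers were read as genes of that line. The presence of other cells was not tested.

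Whether the combination exceeded the sum of the single constructs was tested as the interaction on the log2 scale. In the main fit no member passed in limma, with 0.0623% of all probe sets called. With the array number fitted as a block, CCND1 208712_at passed. In the main fit 3 of the 21 members had an unadjusted p under 0.05, against 6.48% of all probe sets. They were CCND2 200951_s_at at 2.37 (SE 0.56, 95% interval 1.11 to 3.62, adjusted p = 0.34), CCND1 208712_at at 1.45 (SE 0.40, adjusted p = 0.461) and CCND1 208711_s_at at 1.10 (SE 0.37, adjusted p = 0.612). CCND2 200953_s_at, which read higher with each single construct, gave 0.79 (SE 0.42, 95% interval -0.15 to 1.73). Taken within each array number, a grouping the main fit does not use, each of these 4 values was above 0. For 200953_s_at they were 1.36 on the arrays numbered 1 and 0.23 on those numbered 3. The mock values of CCND2 200953_s_at and CCND1 208712_at lie near the lower quartile, which limits their interaction values. The mock means of CCND2 200951_s_at (4.66) and CCND1 208711_s_at (4.90) were higher. They still lay under the medians of the mock arrays, 5.12 and 5.13, so a similar limit may hold for them. The interaction of CCND2 200951_s_at was 1.60 (adjusted p = 0.152) without combination array 1 and passed at 3.13 (adjusted p = 0.00544) without combination array 3. That of CCND2 200953_s_at was 0.22 and 1.37 in the same fits.

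The 2 combination arrays did not read alike for these genes. Array 1 was higher than array 3 by 1.15 on CCND2 200953_s_at, 1.53 on CCND2 200951_s_at, 0.89 on CCND1 208711_s_at and 0.65 on CCND1 208712_at. The responding IKBKB probe set was higher on the same array by 1.77. It was also higher on array 1 by 1.59 with IKKβ(EE) alone, by 0.74 in mock and by 0.08 with IRF5-4D. With IKKβ(EE) alone, array 1 minus array 3 was -0.20 on CCND2 200953_s_at and -0.28 on CCND2 200951_s_at. It was 0.54 on CCND1 208711_s_at and 0.26 on CCND1 208712_at. Of the 15 probe sets of the other members, 4 were higher on combination array 1, a share not counted over all probe sets. The part of the IKBKB level in these differences was not tested.

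CCND3, the D-type cyclin whose main probe set read far above the upper quartile in every group, changed little. Probe set 201700_at read 12.31 and 12.41 in mock, 12.39 and 12.49 with IRF5-4D, 12.54 and 12.25 with IKKβ(EE), and 12.70 and 12.68 in the combination. The combination lay above every other array, at 0.33 (SE 0.13, 95% interval 0.040 to 0.63) over mock, with an unadjusted p of 0.0301 and a limma adjusted p of 0.284. The second CCND3 probe set, 1562028_at, ranged from 5.62 to 6.10 over the 8 arrays and differed from mock by 0.19 (SE 0.15) in the combination.

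The catalytic partners did not pass in any comparison. CDK4 read 10.63 and 10.79 in mock, 10.69 and 10.81 with IRF5-4D, 10.32 and 10.82 with IKKβ(EE), and 10.42 and 10.93 in the combination. These ranges overlap, and the combination differed from mock by -0.034 (SE 0.20, 95% interval -0.49 to 0.42). The highest of the 7 CDK6 probe sets, 224847_at, read 12.52 and 12.66 in mock, 12.36 and 12.53 with IRF5-4D, 12.51 and 12.75 with IKKβ(EE), and 12.35 and 12.82 in the combination. Over all 7, the combination differed from mock by -0.28 to 0.35, with limma adjusted p from 0.521 to 0.9998. Each of the 7 CDK6 probe sets was higher on array 3 than on array 1 in the combination and with IKKβ(EE), against 6 of 7 in mock and 5 of 7 with IRF5-4D. These 7 read 1 gene, and the share of all probe sets higher on array 3 was not counted. CDK4 was higher on array 3 in all 4 groups, by 0.12 to 0.50.

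**Figure D3:**
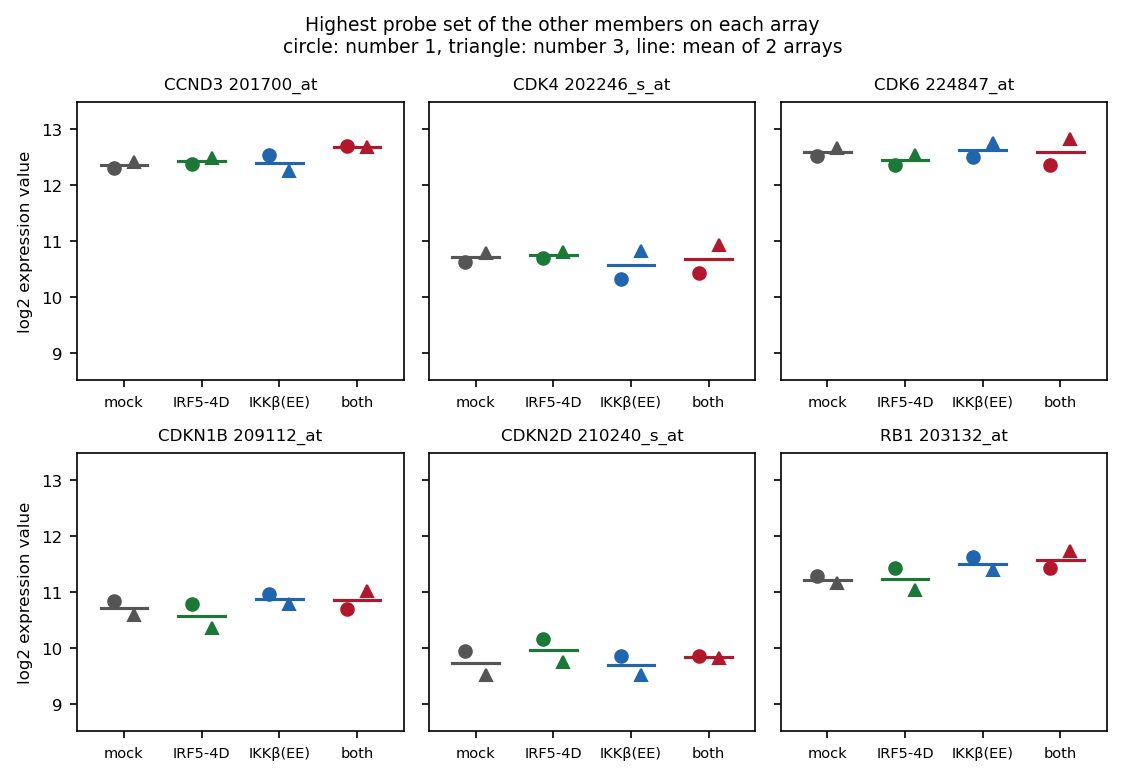
Log2 expression values on each array of the highest probe set of CCND3, CDK4, CDK6, CDKN1B, CDKN2D and RB1, by transfection group (both: the combination), all on the same axis. Circles are arrays numbered 1, triangles arrays numbered 3, and lines the mean of 2 arrays. CCND3 lies between 12.25 and 12.70, and groups overlap for CDK4, CDK6, CDKN1B and CDKN2D.

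The inhibitors and RB1 likewise stayed under the threshold. CDKN1B read 10.84 and 10.59 in mock, 10.79 and 10.35 with IRF5-4D, 10.97 and 10.78 with IKKβ(EE), and 10.69 and 11.02 in the combination, with a difference of 0.13 (SE 0.18, 95% interval -0.27 to 0.54) between the combination and mock. CDKN2D on 210240_s_at read 9.93 and 9.52 in mock, 10.16 and 9.75 with IRF5-4D, 9.86 and 9.51 with IKKβ(EE), and 9.84 and 9.82 in the combination, which differed from mock by 0.11 (SE 0.19). The second CDKN2D probe set, 213586_at, ranged from 3.73 to 4.22 and was never above the array median. RB1 on 203132_at read 11.28 and 11.16 in mock, 11.43 and 11.04 with IRF5-4D, 11.62 and 11.39 with IKKβ(EE), and 11.42 and 11.73 in the combination. IKKβ(EE) and the combination lay above mock without overlap, but the difference of the combination was 0.36 (SE 0.17, 95% interval -0.023 to 0.74, limma adjusted p = 0.385). The other RB1 probe set, 211540_s_at, differed from mock by -0.11 (SE 0.18). For the 15 probe sets of these 6 genes the 95% intervals of the combination against mock together ran from -0.65 to 0.86, and each of them except that of CCND3 201700_at included 0.

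Other genes of the same pathway were then read from lists of general knowledge. Of 25 genes of G1 progression and S phase entry, 1 rose and 0 fell in the combination, while 0 passed with either single construct. In probe sets this was 1 called higher of 56 in the combination. Of all probe sets, 1.66% were called higher and 0.425% lower in the combination, and 0.194% and 0.302% were called with IRF5-4D and IKKβ(EE). The gene that rose was CDKN1A (p21), an inhibitor of cyclin-dependent kinases and a p53 target. It read 10.27 and 9.91 in mock, 10.41 and 10.32 with IRF5-4D, 11.34 and 10.80 with IKKβ(EE), and 11.03 and 11.05 in the combination. IKKβ(EE) and the combination both lay above the other groups. The rise in the combination was 0.95 (SE 0.19, limma adjusted p = 0.0347), a call lost without either array of mock, of IRF5-4D or of the combination (adjusted p 0.0534 to 0.141). With IKKβ(EE) the difference was 0.98 (SE 0.19, adjusted p = 0.103). With IRF5-4D the largest values were CCNE1 at 0.53 (SE 0.34) and CCNE2 at 0.52 (SE 0.28), the cyclins that partner CDK2; without mock array 1 they were -0.053 and 0.064. The median over the 56 probe sets of the list was -0.054 in the combination, against -0.035 over all probe sets.

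Genes that E2F factors switch on for DNA replication were read next. Of 19 measured genes, 0 rose and 2 fell in the combination, and 0 passed with a single construct. In probe sets this was 2 called lower of 34 in the combination, where 0.425% of all probe sets were called lower. CDC6, which loads the replicative helicase, read 9.09 and 9.44 in mock and 8.63 and 8.48 in the combination, and fell by 0.71 (SE 0.14, limma adjusted p = 0.0378). MCM5, a subunit of that helicase, read 10.81 and 10.69 in mock and 10.16 and 10.08 in the combination, and fell by 0.63 (SE 0.13, adjusted p = 0.0467). Both sets of arrays were apart, but CDC6 kept its call in 1 of the 8 fits that left out an array, the one without mock array 1, and MCM5 in 0. The second probe set of each gene did not pass and differed by -0.61 for CDC6 and -0.53 for MCM5. The median over the 34 probe sets of the list was -0.19 in the combination, -0.12 with IKKβ(EE) and 0.093 with IRF5-4D, against -0.035, -0.023 and -0.0098 over all probe sets.

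Of 16 measured regulators of cyclin D transcription, 2 rose and 1 fell in the combination, 1 rose with IKKβ(EE) and 0 passed with IRF5-4D. In probe sets this was 6 called higher and 2 lower of 49 in the combination, and 1 higher with IKKβ(EE). The shares called of all probe sets were 1.66% higher and 0.425% lower in the combination, 0.302% with IKKβ(EE) and 0.194% with IRF5-4D. NFKB1, which encodes the p50 subunit of NF-κB, read 9.26 and 9.08 in mock, 9.55 and 9.54 with IRF5-4D, 10.21 and 9.95 with IKKβ(EE), and 10.47 and 10.36 in the combination. Its 4 groups did not overlap. It rose by 0.91 (SE 0.13, limma adjusted p = 0.0302) with IKKβ(EE), a call lost without either array of mock, IRF5-4D or IKKβ(EE), and by 1.24 (SE 0.13, adjusted p = 0.00141) in the combination. TCF7L2, a transcription factor of WNT signalling, rose by 1.03 (SE 0.14, adjusted p = 0.00648) in the combination on its most responsive probe set. Of its 7 probe sets 5 passed, and they ranged from -0.010 to 1.03. BCL6, the germinal centre repressor that is reported to hold down CCND2, read 8.54 and 8.29 in mock, 7.94 and 8.07 with IRF5-4D, 7.96 and 7.88 with IKKβ(EE), and 7.47 and 7.47 in the combination. Mock was highest and the combination lowest, with a fall by 0.95 (SE 0.13, adjusted p = 0.0052), and 2 of its 3 probe sets passed. The combination calls of NFKB1, TCF7L2 and BCL6 were kept when any 1 array was left out.

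**Figure D4:**
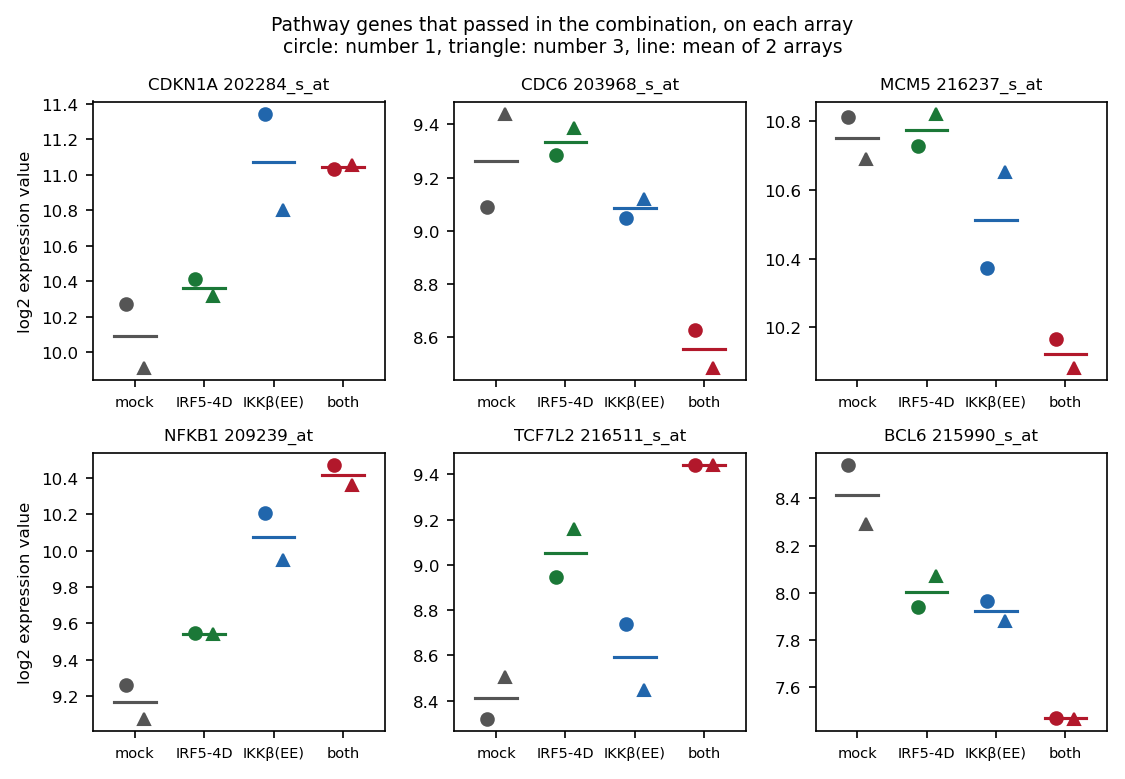
Log2 expression values on each array of CDKN1A, CDC6, MCM5, NFKB1, TCF7L2 and BCL6, by transfection group (both: the combination), each panel on its own axis that does not start at 0. Circles are arrays numbered 1, triangles arrays numbered 3, and lines the mean of 2 arrays. In the combination CDC6, MCM5 and BCL6 lie below mock and CDKN1A, NFKB1 and TCF7L2 above it.

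Of 12 cyclins of other classes, 1 rose in the combination and 0 fell. In probe sets this was 1 called higher of 33 and 0 lower, against 1.66% and 0.425% of all probe sets. CCNL1, a cyclin linked to RNA splicing, rose by 0.996 (SE 0.19, limma adjusted p = 0.0309) on 1 of its 4 probe sets, which ranged from -0.17 to 0.996. This call was lost without either array of mock or IRF5-4D and without combination array 1 (adjusted p 0.0624 to 0.133). With IRF5-4D its difference was 0.58 (SE 0.19, adjusted p = 0.827).

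The genes whose pattern was most like that of CCND2 were sought among 2854 probe sets with 1 symbol and a range of at least 1 over the 8 arrays. Likeness was Pearson's r over the 8 arrays with CCND2 200953_s_at. The highest were CTSS, a lysosomal protease, at 0.986, the death receptor TNFRSF10A at 0.980, the galactosyltransferase B4GALT5 at 0.980, the urokinase gene PLAU at 0.980, and IGFBP4, which binds insulin-like growth factors, at 0.978. The arrays of a group share their construct, so these r values mainly follow the order of the 4 groups. Only PLAU among them had changes as large as those of CCND2, at 2.22, 2.59 and 4.76 above mock with IRF5-4D, IKKβ(EE) and the combination. CTSS differed by 0.24, 0.40 and 0.88 in the same comparisons. CCND1 followed CCND2 at 0.931 on 208712_at and 0.910 on 208711_s_at, and CCND3 201700_at at 0.775.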

How the data were processed

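Expression was measured on 8 arrays of transfected Reh cells. The deposited values are log2 expression values made by the authors with RMA, per the submitters' processing notes, which corrects background, quantile-normalizes between arrays and summarises each probe set; its version was not given in the sources used here. Of 54675 probe sets, 62 Affymetrix controls were left out. Symbols came from the platform annotation of the deposited table, and the identifiers of all 21 member probe sets were found in RefSeq with 0 symbols changed. Probe sets ending in _s_at can bind several transcripts.

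One model of 4 group means was fitted to every probe set with limma 3.58.1 (lmFit, then eBayes; R 4.3.3; 4 residual and 5.28 prior degrees of freedom). The contrasts between groups and the interaction were tested, with Benjamini-Hochberg adjustment of p over 54613 probe sets. A probe set was called at an adjusted p under 0.05. SE is the moderated standard error, SD that of 2 arrays, and intervals cover 95%. The number of arrays limits the precision. The p values rest on the spread between duplicates, pooled over the 4 groups and moderated by that of all probe sets. They do not measure the spread of the 2 compared groups alone. On CCND2 200953_s_at the SD was 0.01 in mock and 0.81 in the combination, under the same SE of 0.30. The procedure was tested on simulated data.

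All member probe sets were accounted for. From each list the called genes with the largest change were named, or the largest values where none was called; not every such gene is printed. The members and lists were chosen with earlier results of these data known. Alternatives were median centring, quantile normalization, a filter on level, 1 probe set or the mean of all per gene, no _x_at probe sets, eBayes with trend or robust, array weights, a replicate block, a fit of only the groups compared, other thresholds and leaving out each array.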

Additional observations from a re-analysis of the deposited data

How the results depend on the processing

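No difference of a member turned its direction under the alternatives run, where an uncalled difference smaller than its SE was given no direction. Among the other genes followed, the precursor B marker DNTT did so with IRF5-4D, from 0.29 to -0.22 without mock array 1. The count of member probe sets called moved as follows. With IRF5-4D it was 1 in place of 0 with 1 probe set per gene, eBayes with trend, the replicate block, a fit of only the groups compared or an adjusted p under 0.1. With IKKβ(EE) it was 0 in place of 1 with a gene averaged over its probe sets and 2 with the replicate block. With 1 probe set or their mean per gene, where a gene counts once, it was 2 in place of 4 for the combination against mock and against IRF5-4D, and with 1 probe set per gene it was 1 in place of 3 against IKKβ(EE). Fitting only the groups compared gave 3 in place of 4 for the combination against mock, 2 in place of 4 against IRF5-4D and 2 in place of 3 against IKKβ(EE). Keeping only probe sets above the median level, which leaves out CCND1 208712_at, gave 3, 3 and 2 in these comparisons. Against IKKβ(EE) the replicate block and an adjusted p under 0.1 gave 4, and the mean per gene 2. The replicate block gave 1 in place of 0 for IKKβ(EE) against IRF5-4D and for the interaction, in both cases CCND1 208712_at (0.79, adjusted p = 0.0436, and 1.45, adjusted p = 0.03). It also called this probe set with IKKβ(EE) at 1.02 (adjusted p = 0.013). Arrays sharing a number deviated from their group means with correlations of -0.053 to 0.304 over the 6 pairs of groups. Among mock and the single constructs they were 0.281, 0.304 and 0.186, and with the combination -0.053, 0.095 and 0.123. What the numbers stand for was not given in the sources used here, and not every pair was above 0.1. The main fit therefore did not take the numbers as pairs. The calls of CCND1 208712_at under the replicate block depend on this choice.

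Leaving out 1 array gave 0 to 1 calls with IRF5-4D, 0 to 1 with IKKβ(EE), 3 to 5 for the combination against mock, 0 to 4 against IRF5-4D, 1 to 4 against IKKβ(EE), 0 to 0 for IKKβ(EE) against IRF5-4D and 0 to 1 for the interaction; a lone array was assumed to vary like the others. Over all probe sets the 1139 calls of the combination against mock ranged from 588 to 978 in these fits and from 510 to 1919 under the other alternatives. The 106 calls with IRF5-4D ranged from 32 to 174 and the 165 with IKKβ(EE) from 35 to 317. The cause was not tested. Changes of levels near the lower quartile are limited by signal over background.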

Other observations

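Among 6 epithelial and stromal markers, COL1A1, a chain of type I collagen, was noticed after its values were seen. Its probe set 1556499_s_at read 3.73 and 3.71 in mock, 3.34 and 3.57 with IRF5-4D, 8.10 and 6.58 with IKKβ(EE), and 6.48 and 4.24 in the combination. It differed from mock by 3.62 (SE 0.64, limma adjusted p = 0.0715) with IKKβ(EE) and by 1.64 (SE 0.64, adjusted p = 0.283) in the combination, and from IRF5-4D by 3.88 (SE 0.64, adjusted p = 0.039) with IKKβ(EE). The last call was lost when either array of mock, IRF5-4D or IKKβ(EE) was left out, and the difference of IKKβ(EE) from mock was called without either combination array (adjusted p = 0.00936). In the combination the difference was 0.52 without array 1 and 2.75 (adjusted p = 0.0289) without array 3. EPCAM and COL1A2 had no probe set whose mean over all 8 arrays was above the array median. Of the 12 probe sets of this list 0 were called against mock in any group. The COL1A1 probe set was the 1 called for IKKβ(EE) against IRF5-4D, where 0.483% of all probe sets were called. The median over the 12 was 0.010 with IKKβ(EE) against mock, and -0.023 over all probe sets.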
